A study of Bos taurus with 2 samples.

Results

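Single-cell RNA profiles of bovine embryos were searched for cells that transcribed collagen VI, the microfibrillar collagen that mesenchymal and stromal cells lay down around themselves. A collagen VI cell was a cell with 500 or more detected genes and 3 or more unique molecular identifiers (UMIs, barcodes by which every RNA molecule is counted a single time) of COL6A1, COL6A2 and COL6A3 together. The members were thus chosen by their own collagen VI counts. 112 cells met that rule, 40 in replicate 1 and 72 in replicate 2, of 4359 cells with 500 or more detected genes and 4437 deposited cells. The rule then split them by KRT19, a keratin of simple epithelia and mesothelium: 99 KRT19-high cells had 3 or more KRT19 UMIs (33 and 66), and 13 KRT19-low cells had 0 to 2 (7 and 6). They were compared with 4001 cells that had no collagen VI UMI (1803 and 2198). The remaining 246 cells had 1 or 2 collagen VI UMIs and entered no class.

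Both samples were embryos flushed from the uterus at day 25, and both belonged to 1 group: chimeras, made by incorporating bovine embryonic stem cells into a host embryo. The embryos were dispersed with papain and DNase, sorted, and run on a droplet 3′ system. The gate of the sort, the number of embryos behind a sample, and which cells carried a GFP transgene are not given in the labels. All comparisons are therefore between cell classes within the same 2 suspensions, which are not stated to hold different embryos. The p-values set a class difference only against how far such differences varied between the 2 samples, and that spread may be technical.

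Collagen VI is assembled inside the cell from 3 chains, the products of COL6A1, COL6A2 and COL6A3, and is secreted as microfilaments that link cells, basement membranes and fibrillar collagen. Mesenchyme usually carries vimentin without keratins. The mesoderm that lines the extraembryonic membranes and the mesothelium of the body cavities carry both, and the visceral endoderm of the yolk sac, which lies against that mesoderm, secretes apolipoproteins and retinol-binding protein.

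In their summed counts, the KRT19-high collagen VI cells were a fibrillar collagen-producing, keratin-bearing and apolipoprotein-rich population, and its levels were close in both replicates. Levels are given as CPM, the counts of a gene scaled to the same total of UMIs in each summed class. These cells held 10564 and 10374 of COL1A1 (replicates 1 and 2), 6734 and 7109 of KRT19, and 17887 and 17692 of APOA1, the main protein of high-density lipoprotein. The 5 markers set for these cells were all present: COL6A1 stood at 614 and 636 CPM, COL6A3 at 528 and 485, and SPARC, a collagen-binding matrix protein, at 5817 and 5299. COL6A2 stood at 375 and 419 CPM. The collagen VI genes and KRT19 chose these cells, and the markers, SPARC and APOA1 among them, were set with earlier results of these data known. The levels of all these genes are therefore a description. Not every cell was alike. 20 or more APOA1 UMIs were found in 30 of 33 and 60 of 66 cells, and 10 or more COL1A1 UMIs in 31 of 33 and 63 of 66. A cell of replicate 2 with 9413 UMIs had 63 KRT19 and 9 COL1A1 UMIs and no APOA1.

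Collagen VI cells made up 2.06% of kept cells in replicate 1 (95% Clopper-Pearson interval 1.48 to 2.80) and 2.98% in replicate 2 (2.34 to 3.73), a mean of 2.52% ± 0.645 (SD, n = 2). With every cell thinned to 2000 UMIs the shares were 0.968% and 1.67%. These intervals cover counting error only. KRT19-high cells were 82.5% of collagen VI cells in replicate 1 and 91.7% in replicate 2, or 87.1% ± 6.48 (SD, n = 2). Among cells with no collagen VI UMI the KRT19-high share was 3.83% and 5.69%. With every cell thinned to 2000 UMIs, leaving out 2 and 1 collagen VI cells and 276 and 307 comparison cells that were shallower, it was 84.2% and 88.7% against 1.83% and 2.01%.

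**Figure D1:**
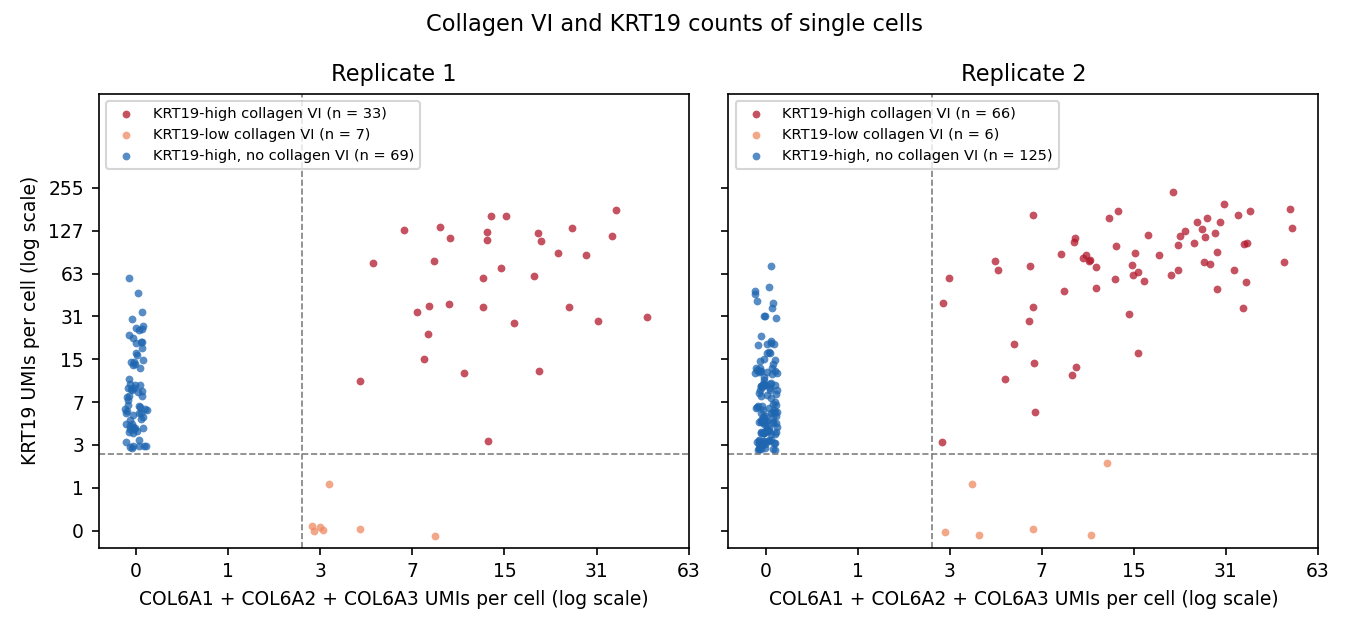
Each point is a cell, placed by its summed COL6A1, COL6A2 and COL6A3 UMIs (x, log scale) and its KRT19 UMIs (y, log scale), with a small random shift so that points do not hide each other. Dashed lines mark the 3-UMI thresholds. The 99 KRT19-high collagen VI cells reach up to 170 and 236 KRT19 UMIs in replicates 1 and 2, against up to 64 and 67 in KRT19-high cells without collagen VI, and most of the 13 KRT19-low cells lie near the collagen VI threshold.

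The KRT19-high share was mixed near the collagen VI threshold and high at 5 or more UMIs. Of the cells just outside the rule, with 2 collagen VI UMIs, 3 of 13 in replicate 1 and 10 of 25 in replicate 2 were KRT19-high. Just inside it, at 3 UMIs, 0 of 5 and 3 of 4 were, at 4 UMIs 1 of 2 and 0 of 2, and at 5 or more UMIs 32 of 33 and 63 of 66.

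Depth and RNA composition moved with the classes. KRT19-high collagen VI cells had a median of 12193 and 12772 UMIs and 25.4% and 27.2% ribosomal protein counts, whereas all cells without collagen VI had 4860 and 5526.5 UMIs and 4.01% and 5.03%. KRT19-low collagen VI cells, chosen by the same collagen VI rule, had medians of 4611 and 7912 UMIs. A rule that counts UMIs can favour deep cells, and its part in these depths was not tested. The highest collagen VI cells, at 3998 and 3994 detected genes, lay against the ceiling of 3999 that the deposited cells share. KRT19-high cells without collagen VI were closer to the KRT19-high collagen VI cells, at 8417 and 10063 UMIs and 23.3% and 25.7% ribosomal protein counts. Mitochondrial counts were a median of 1.64% and 0.964% in KRT19-high collagen VI cells and 0.539% and 0.462% in KRT19-high cells without collagen VI. The part of depth, ribosomal share and doublets in the results was not tested beyond restricted fits. With cells of 10% or more ribosomal protein counts only, 39 of 119 called named genes moved by over 1.5 times in fold and 4 calls ended in the comparison with all cells without collagen VI, and 14 of 108 and 2 in that between the KRT19-high classes. In cells within the depth band of collagen VI cells these numbers were 14 and 2, and 27 and 1. The band kept 32 and 56 collagen VI cells and 1159 and 1060 cells without collagen VI, and depth was not equalised within it. No collagen VI cell had a barcode found in both replicates.

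Against all cells without collagen VI, 13335 genes were tested with edgeR's quasi-likelihood test on counts summed per class and replicate, blocked on replicate, and Benjamini-Hochberg adjusted p-values were called at 0.05. Of these, 3009 (22.6%) were higher and 3352 (25.1%) lower in collagen VI cells, or 47.7% in either direction, so a call in this comparison was common. The log2 differences are relative to the trimmed-mean scaling of the test: with library totals as the only scaling the median gene moved by a further −0.75, and 1696 genes were higher and 6676 lower. Each gene had 1 residual degree of freedom, and the spread was in effect pooled over genes.

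The 15 highest genes by the naming rule rose by 6.08 to 9.88 on the log2 scale (largest adjusted p by edgeR 8.01e-308). They fell into matrix genes (COL1A1, COL1A2, COL3A1, DCN, LUM, SPARC and AEBP1), lipid, retinol and protease-inhibitor carriers (APOA1, APOE, RBP4, FABP5 and A2M), and KLK1, AQP1 and S100A10, which encode tissue kallikrein, a water channel and an annexin partner. KLK1 had the largest difference, 9.88 ± 0.18 (SE). The lowest genes given here had log2 differences from −4.43 for HBE4 to −3.71 for GRIP1 (largest adjusted p by edgeR 6.78e-51) and were neuronal or neural adhesion genes (MAP2, CTNND2, GRIP1, PCDH9, NEGR1 and ERBB4) and the embryonic globins HBZ, HBE1 and HBE4. The globins depended on the cells compared. HBE4 was at 671 and 3538 CPM in the cells without collagen VI. Its log2 difference was −2.92 without replicate 2 and −1.14 in cells within the depth band, and its edgeR adjusted p was 0.142 without the replicate block. HBE1 ranged from −4.93 to −3.41 and HBZ from −4.70 to −3.28 with 1 replicate left out, and in cells within the depth band they were −0.85 and −0.78. PCDH9 was −3.57 and −6.23 without replicates 1 and 2. Among all kept cells, 9 and 19 had 20% or more of their UMIs from embryonic globins.

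Since 3807 of the 4001 comparison cells were KRT19-low, the KRT19-high collagen VI cells were also set against the 194 KRT19-high cells without collagen VI (69 and 125). These were of several kinds: SOX2, a neural and pluripotency factor, had a UMI in 55.1% and 61.6% of them, and 7.25% and 5.6% had 3 or more UMIs of the trophoblast genes PAG2 and PAG8. In this fit 10788 genes were tested: 2265 (21.0%) were higher and 2253 (20.9%) lower in the collagen VI cells, 41.9% in either direction. With library totals as the only scaling the median moved by a further −0.49 and the counts were 1434 and 4103. The shares of 21.0% and 20.9% are the background of each list count given below for this comparison. For counts against all cells without collagen VI the background is 22.6% and 25.1%. Tested genes had to pass an expression filter, which a gene low in the comparison cells could pass through its level in collagen VI cells. Such a gene could hardly be called lower, so list counts lean towards higher genes.

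**Figure D2:**
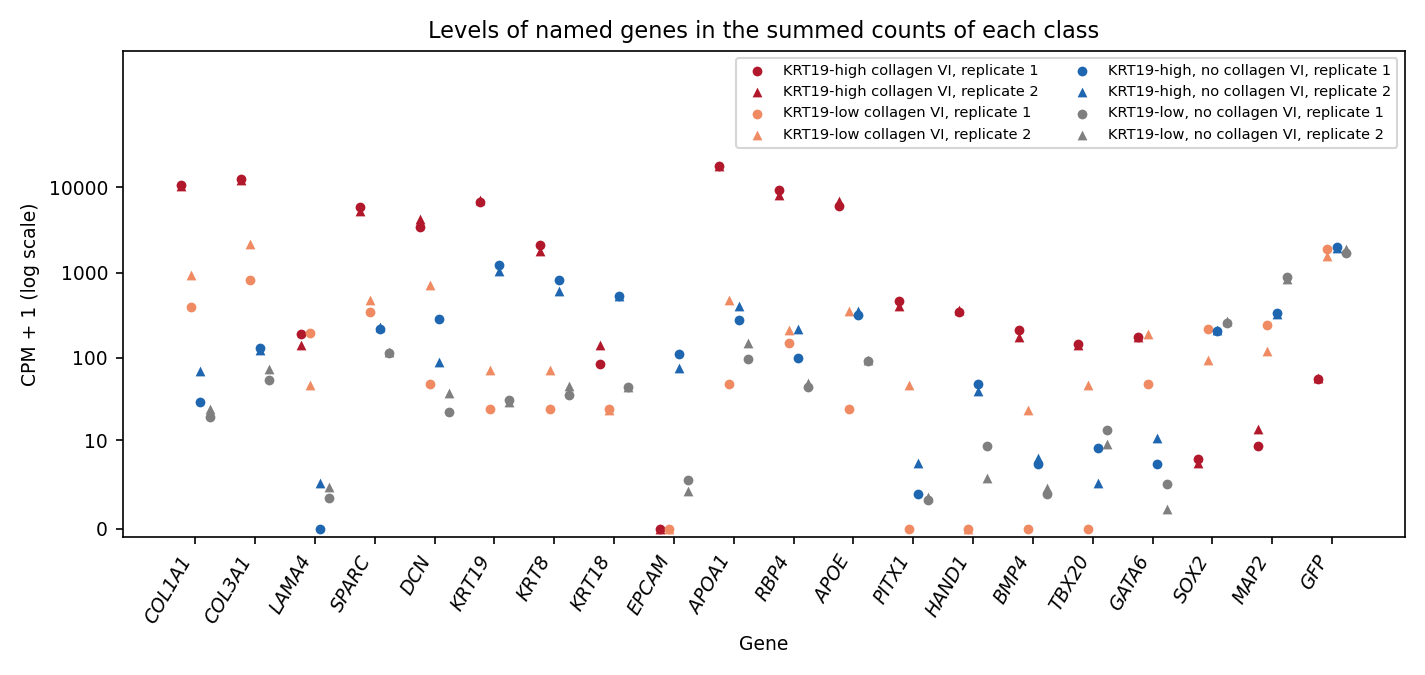
Levels of 20 genes in CPM + 1 (y, log scale) in the summed counts of 4 cell classes; circles are replicate 1 and triangles replicate 2. The KRT19-high collagen VI cells stand above the other classes in COL1A1, COL3A1, the apolipoproteins, PITX1, HAND1 and BMP4 and below them in SOX2, MAP2 and GFP, while EPCAM is at 0 in both collagen VI classes.

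Fibrillar collagens set the KRT19-high collagen VI cells apart from other keratin-bearing cells. COL1A1 was at 29.8 and 69.0 CPM in KRT19-high cells without collagen VI, a log2 difference of 8.17 ± 0.24 (SE) that was 8.86 without replicate 2. COL3A1, which forms fibrils with collagen I, was at 12409 and 12117 CPM against 132 and 122, a log2 difference of 7.09 ± 0.21 (edgeR adjusted p = 3.65e-44). COL12A1, a collagen that sits on fibrils, was at 475 and 510 CPM against 15.7 and 12.3. COL2A1, the main collagen of cartilage and notochord, went the other way, at 5.56 and 12.4 CPM against 144 and 163. Of 10 tested genes of the collagen list, 8 were higher and 1 lower in this fit, and 8 and 1 of 11 in the fit of all collagen VI cells, with medians of 6.19 and 5.51 beside −0.11 and −0.22 over all genes tested.

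Genes for making collagen rose with the collagens. In the KRT19-high comparison 18 of 20 tested assembly genes were higher and none lower by edgeR, and 1 more of the 21 was too low to test. LOX, the enzyme that crosslinks collagen, was at 347 and 401 CPM against 11.0 and 14.8 (log2 difference 5.30 ± 0.25, edgeR adjusted p = 8.65e-32). LOXL2, a relative, was at 578 and 518 CPM against 25.1 and 25.5. SERPINH1, the collagen chaperone, was at 853 and 856 CPM against 227 and 215. P4HA3 and MIA3 did not pass the threshold.

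Basement membrane genes were high too. 15 of 16 tested genes of that list were higher and 1, LAMA1, was lower. COL4A1, the main network collagen of basement membranes, was at 3136 and 2793 CPM against 95.5 and 202 (log2 difference 4.77, and 5.43 without replicate 2). COL18A1, which carries the endostatin domain, was at 3236 and 2750 CPM against 150 in both replicates, a log2 difference of 4.78 ± 0.19 (edgeR adjusted p = 4.74e-37). LAMA4, the laminin chain of mesenchymal and vascular basement membranes, stood at 192 and 141 CPM against 0 and 2.47, while LAMA1, the chain of early epithelia, stood at 8.33 and 8.66 against 50.1 and 52.6. LAMA4 and LAMA1 thus moved in opposite directions. The LAMA4 difference, 7.12, was 6.29 without replicate 1; in replicate 1 the comparison cells had no LAMA4 UMI.

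Matrix glycoproteins and proteoglycans were more uneven. In the KRT19-high comparison 11 of 17 tested glycoproteins were higher and none lower by edgeR, with 6 not passing. SPARC rose by 5.10 ± 0.19 (edgeR adjusted p = 1.15e-38). LUM, a keratan sulfate proteoglycan of collagen fibrils, was at 1267 and 1614 CPM against 50.1 and 27.9 (log2 difference 5.80, and 5.05 without replicate 2). DCN, a related proteoglycan, was at 3428 and 4301 CPM against 290 and 88.0, but the spread within the comparison cells was wide and the difference did not pass (edgeR adjusted p = 0.0555). POSTN, a matrix protein of fibroblasts, was at 0 and 39.6 CPM and did not pass either (edgeR adjusted p = 0.268). FSTL1 was at 83.3 and 114 CPM against 86.1 and 118.

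Among known partners and receptors of collagen VI, 5 of 8 tested genes were higher and 2 lower, beside 21.0% and 20.9% of all genes tested. BGN, the small proteoglycan biglycan that binds collagen VI, was at 83.3 and 94.0 CPM against 4.70 and 2.47 (log2 difference 5.26, and 4.53 without replicate 2). The receptors ANTXR1, ANTXR2, ITGA1 and ITGB1 were also among the higher genes, with ITGB1 at 353 and 359 CPM against 227 and 225. ITGA2 and MATN2 were lower. With library totals only, 4 genes were higher. COL6A5 and COL6A6, which encode alternative chains, were at 0 and 3.71 CPM and at 0.

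**Figure D3:**
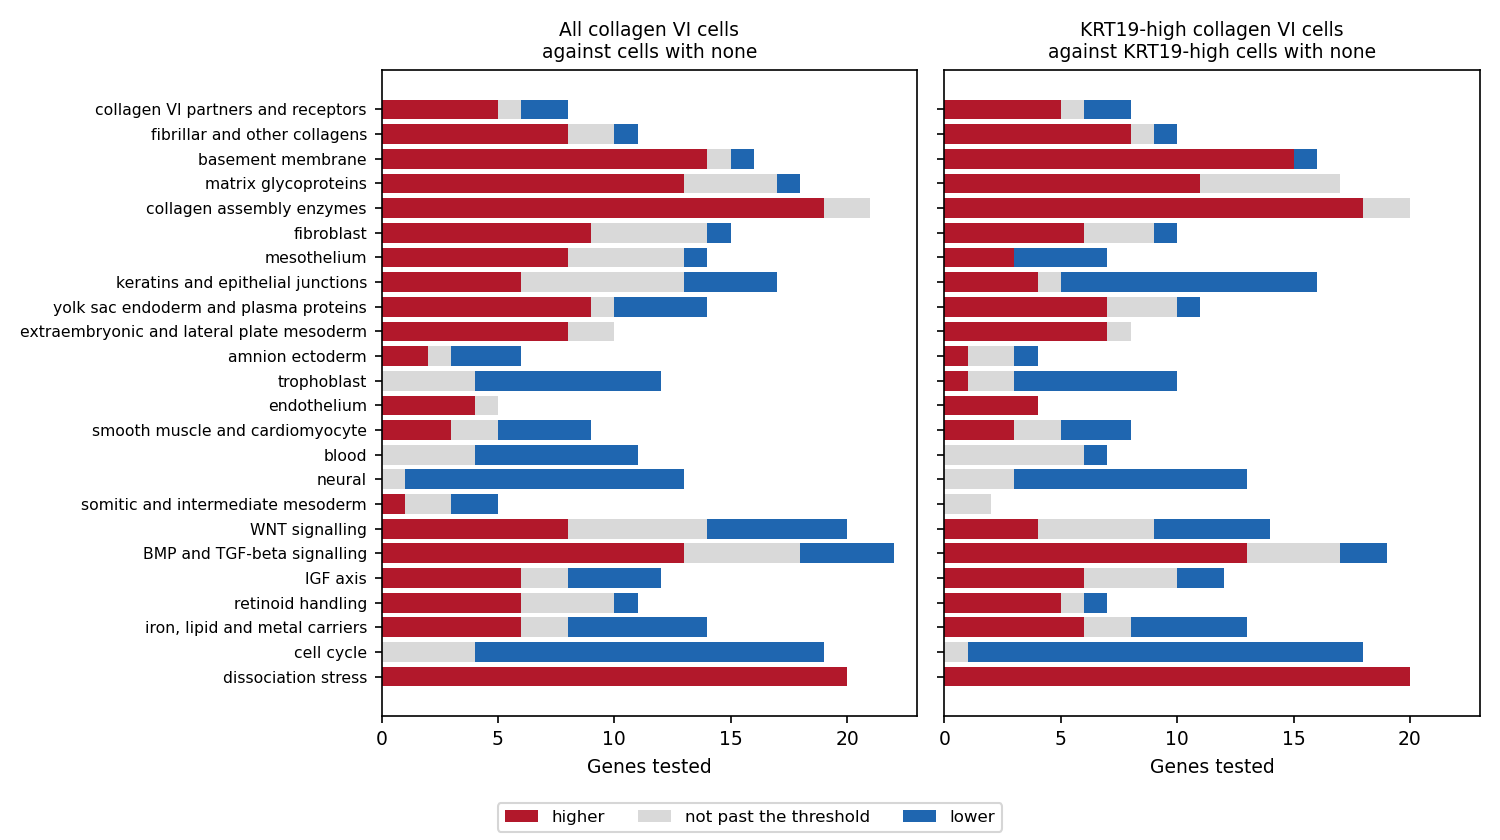
For each gene list, the number of tested genes that were higher, lower or not past the adjusted p threshold of 0.05 (x), with all collagen VI cells on the left and KRT19-high collagen VI cells against KRT19-high cells without collagen VI on the right. All 20 tested genes of the dissociation stress list were higher in both comparisons, and 15 of 19 and 17 of 18 cell cycle genes were lower.

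The keratins did not move as a set. KRT8, the usual partner of KRT18 in simple epithelia, was at 2122 and 1804 CPM in KRT19-high collagen VI cells against 822 and 612, a log2 difference of 1.94 ± 0.17 (edgeR adjusted p = 1.22e-15). KRT18 was at 83.3 and 140 CPM against 540 and 529, a log2 difference of −1.71 ± 0.19 (edgeR adjusted p = 2.07e-12); it was −2.30 without replicate 2. Against all cells without collagen VI the direction was the opposite, 1.14 ± 0.20 (edgeR adjusted p = 5.08e-08), and not past the threshold with library totals only (0.39). Between the KRT19-high classes it was −0.34 and not past the threshold when KRT19-high meant 1 or more UMIs. KRT8 and KRT18 have processed copies elsewhere in mammalian genomes, so their counts are uncertain where counting could split reads.

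Several genes of epithelial adhesion and tight junctions were at 0, while desmosomal genes were higher. EPCAM, CDH1, CLDN4 and KRT7 had no UMI in the 99 cells, against 111 and 74.8, 51.7 and 17.3, 87.7 and 67.4, and 51.7 and 38.6 CPM in KRT19-high cells without collagen VI. Measured against a floor of 3 counts over the group, these are at least 34.0-fold, 11.3-fold, 29.0-fold and 16.8-fold lower. In all, 11 of 16 tested keratin and junction genes were lower and 4 higher. The higher ones besides KRT8 were the desmosomal genes DSP, PKP2 and JUP, with PKP2 at 106 and 101 CPM against 50.1 and 48.5; 3 of the 4 were called by DESeq2 and with library totals only.

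The mesothelium list gave different pictures in the 2 comparisons. Against all cells without collagen VI, 8 of 14 tested genes were higher and 1 lower, beside 22.6% and 25.1% of all genes tested, with a median log2 difference of 1.71. KRT19, a marker set for these cells, is on the list and was counted here. WT1, LRRN4, TBX18, ALDH1A2 and CALB2 had no UMI in the KRT19-high collagen VI cells, and UPK3B, UPK1B and BNC1 were at 0 to 12.4 CPM. MSLN was at 8.33 and 37.1 CPM against 1.57 and 2.47 in the other KRT19-high cells, too low to test there; against all cells without collagen VI it was higher by 5.50 ± 0.74 (edgeR adjusted p = 8.45e-13; 6.56 and 3.37 without replicates 1 and 2). Of 7 genes of the list tested between the KRT19-high classes, 3 were higher (KRT8, PODXL and EZR) and 4 lower (KRT7, KRT18, CDH1 and GPM6A), and 7 of 17 genes of the list in the table were at 0. The keratin and CDH1 entries are shared with the junction list. EZR, which anchors actin to the membrane, was at 686 and 717 CPM against 276 and 263.

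Secreted carriers of lipid and retinol were high, but the list of yolk sac endoderm genes was split. APOA1 was at 279 and 411 CPM in the other KRT19-high cells, a log2 difference of 6.20 ± 0.20 (edgeR adjusted p = 2.70e-41). APOE was at 5992 and 6948 CPM against 321 and 353. RBP4, the plasma carrier of retinol, was at 9284 and 8175 CPM against 98.7 and 219, with a log2 difference of 6.26 ± 0.25 that was 6.95 without replicate 2; 1 cell held 41.2% of the RBP4 UMIs of the comparison cells. In contrast AFP, ALB, APOA2, APOB, FGA, FGB, FGG and HNF4A had no UMI in these 99 cells, and TTR was at 2.78 and 1.24 CPM. Here 7 of 11 tested genes were higher and 1, FOXA2, lower, and 11 of 27 genes of the list were at 0.

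The higher genes of that list besides the carriers were GATA6, a factor of endoderm and extraembryonic mesoderm, and endocytosis genes. GATA6 was at 175 and 174 CPM against 4.70 and 10.7 (log2 difference 4.82, and 5.6 without replicate 2). DAB2, an adaptor for receptor uptake, was at 542 and 600 CPM against 61.1 and 92.1, LRP2, a multiligand receptor, at 58.3 and 58.1 against 18.8 and 15.6, and AMN at 25.0 and 39.6 against 0 and 1.64. All 3 take part in receptor-mediated uptake. CUBN, the partner of AMN, was at 5.56 and 3.71 CPM. FOXA2, an endoderm and floor plate factor, was at 5.56 and 8.66 CPM against 262 and 292, a log2 difference of −4.70 ± 0.32 (edgeR adjusted p = 1.60e-22).

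Some transcription factors and signals of extraembryonic and lateral plate mesoderm were higher. Of 17 genes of this list, 8 were tested, and of these 7 were higher and none lower by edgeR. Tested genes that were low in the comparison cells, such as BMP4, could hardly be called lower, so this count is a description. PITX1, a hindlimb mesoderm factor that is not on the list but was among the 15 highest genes, was at 472 and 408 CPM against 1.57 and 4.93 (log2 difference 7.33, and 8.60 without replicate 2). HAND1, an extraembryonic and cardiac mesoderm factor, was at 347 and 366 CPM against 48.6 and 40.3. BMP4 was at 211 and 178 CPM against 4.70 and 5.75, and TBX20 at 144 and 140 against 7.83 and 2.47 (5.49, and 6.28 and 4.59 without replicates 1 and 2). These levels differed little between the replicates of the collagen VI cells. GATA4, NKX2-5, TBX4 and TBX5 were at 0 to 2.47 CPM.

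Embryonic fibroblast genes gave a mixed picture. SNAI2 was at 136 and 95.2 CPM against 7.83 and 9.86, and CDH11, the mesenchymal cadherin, at 392 and 456 against 50.1 and 53.4. VIM, vimentin, was high in both kinds of cell, at 3161 and 3807 CPM against 2409 and 2845. TWIST1 was at 36.1 and 77.9 CPM against 20.4 and 7.40. PRRX1, a limb and facial mesenchyme factor, was at 0 and 1.24 CPM against 7.83 and 13.2, and DPT, TWIST2 and FOXC2 were at 0. Of 10 tested genes, 6 were higher and 1, PRRX1, lower, beside 21.0% and 20.9% of all genes tested. PRRX1 was not called by DESeq2.

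Growth factor genes moved both ways. In the BMP and TGF-beta list 13 of 19 tested genes were higher and 2 lower; with library totals only 11 were higher and 5 lower. The summed level of this list was 3270 and 3274 CPM against 3418 and 3405. TGFB2 was at 533 and 490 CPM against 87.7 and 84.7 (log2 difference 3.05 ± 0.18, edgeR adjusted p = 1.33e-25). The lower 2 were ID1 and ID3, which are direct targets of BMP signalling; ID3 was at 214 and 163 CPM against 791 and 704. IGF2, the fetal growth factor, was at 1545 and 1339 CPM against 468 and 243, IGF2R at 308 and 309 against 25.1 and 44.4, and IGF1R at 16.7 and 13.6 against 103 and 98.6. WNT2B was at 125 and 116 CPM against 36.0 and 25.5. RSPO3, which amplifies WNT signals, was at 328 and 305 CPM against 107 and 202 (log2 difference 1.48, and 0.47, not past the threshold, without the deepest cells). In the WNT list 4 of 14 tested genes were higher and 5 lower, beside 21.0% and 20.9% of all genes tested. NRG1, a ligand of ERBB receptors among the 15 highest genes, was at 994 and 860 CPM against 20.4 and 14.8.

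Vascular and muscle markers were present in part. KDR and FLT1, receptors for VEGF, were at 83.3 and 108 and at 72.2 and 54.4 CPM against at most 7.40 (KDR 5.998, with no UMI in the comparison cells of replicate 1, and FLT1 3.72, 4.33 without replicate 2), while PECAM1, CDH5, TIE1, ERG and ESAM had no UMI. Of 12 endothelial genes 4 were tested and all 4 were higher, while 7 of 12 were at 0. Tested genes that were low in the comparison cells, such as KDR and FLT1, could hardly be called lower, so this count is a description. MYL4, an atrial and fetal myosin light chain, was at 461 and 446 CPM against 6.26 and 3.29, and ACTA2, smooth muscle actin, at 258 and 380 against 17.2 and 14.8. TAGLN, another smooth muscle gene, went the other way, at 2.78 and 30.9 CPM against 382 and 420 (log2 difference −3.77, and −6.70 without replicate 2), and TNNT2 and NPPA were at 0. The MYL4 level in the comparison cells of this fit rested on few UMIs, 37.5% of them from 1 cell, and with KRT19-high meaning 1 or more UMIs its log2 difference fell from 7.17 to 5.36 and did not pass.

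Proliferation genes were lower and immediate early genes higher. In the KRT19-high comparison 17 of 18 tested cell cycle genes were lower and none higher by edgeR; DESeq2 called 13 of them lower. TOP2A was at 19.4 and 34.6 CPM against 200 and 216 (log2 difference −2.34, and −2.97 without replicate 2), and MCM5, a replication licensing factor, at 13.9 and 14.8 against 111 in both replicates. All 20 tested genes that respond to cell dissociation were higher by edgeR, 19 by DESeq2 and 18 with library totals only. FOSB was at 894 and 926 CPM against 50.1 and 45.2, and JUN at 4445 and 4656 against 1167 and 1074. The summed level of that list was 11934 and 13808 CPM against 4212 and 3484, higher in the same cells as the matrix and carrier genes above; its part in them was not tested.

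Trophoblast, leukocyte and neural genes were at 0 or low in these cells. PAG8 and SSLP1, secreted products of ruminant trophoblast, had no UMI in the KRT19-high collagen VI cells, at least 174-fold and 145-fold lower than in the other KRT19-high cells, and PAG2 had 1 UMI. Of 10 tested trophoblast genes, 7 were lower and 1, PRP1, higher, at 2.78 and 3.71 CPM against 0. The PRP1 level is close to 2.57 CPM, the level of 3 counts over these cells, so its call rests on few UMIs. The comparison levels rest on few cells, so leaving out those with 3 or more PAG2 and PAG8 UMIs was tried; it gave 2296 higher and 2221 lower genes. HBZ was at 283 and 263 CPM against 307 and 302, and PTPRC, the pan-leukocyte gene, had no UMI. Of the neural list, 10 of 13 tested genes were lower, with SOX2 at 5.56 and 4.95 CPM against 208 and 212 and MAP2 at 8.33 and 13.6 against 335 and 328 (log2 difference −4.30, and −4.93 without replicate 2).

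Retinoid and lipid genes beyond the carriers moved both ways. Of 7 tested retinoid genes 5 were higher and 1, CRABP1, an intracellular retinoic acid binder of neural tissue, was lower, at 103 and 106 CPM against 628 and 1322. DHRS3, which reduces retinaldehyde, was at 147 and 183 CPM against 23.5 and 12.3. Of 13 tested iron and lipid genes 6 were higher and 5 lower, beside 21.0% and 20.9% of all genes tested. FABP5, a fatty acid carrier, was at 2306 and 2481 CPM against 388 and 294, while its relative FABP3 was at 2.78 and 3.71 against 95.5 and 80.6. FTL, a ferritin chain, passed as higher although its CPM was not, at 1503 and 1469 against 1511 and 1562, so its direction depends on the scaling. Amnion and somite lists gave little: 1 of 4 tested amnion genes, BAMBI, was higher and 1, GATA3, lower, and of 2 tested somitic and intermediate mesoderm genes neither passed by edgeR.

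GFP, named after its values had been seen, separated the KRT19-high collagen VI cells from the other classes. Its level was 55.6 and 56.9 CPM, against 2009 and 1933 in KRT19-high cells without collagen VI and 1706 and 1892 in KRT19-low cells without it. The log2 difference from the former was −4.65 ± 0.21 (edgeR adjusted p = 1.09e-32). 1 of 33 and 4 of 66 cells had 3 or more GFP UMIs, against 45 of 69 and 88 of 125. After thinning to 2000 UMIs it was 0 of 33 and 1 of 66 against 31 of 66 and 59 of 123, and 0 of 33 allows a share of up to 9.09%. Other kinds of cell were also low, with 44.2 and 26.1 CPM in globin-rich cells and 53.5 and 19.2 CPM in cells with 10 or more PAG2 and PAG8 UMIs. The labels do not say which cells lacked a transgene, and the sort gate, which could set these shares, is not given.

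**Figure D4:**
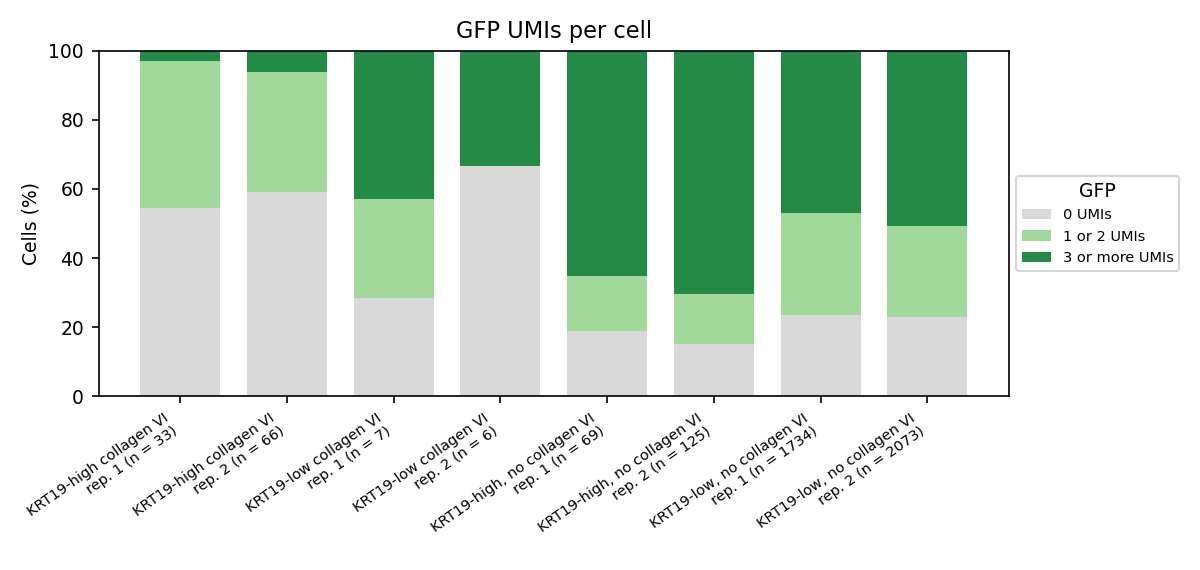
Share of cells (y, %) with 0, 1 or 2, or 3 or more GFP UMIs in 4 cell classes, by replicate, without thinning. Cells with 3 or more GFP UMIs are 3.03% and 6.06% of KRT19-high collagen VI cells, 65.2% and 70.4% of KRT19-high cells without collagen VI, and 3 of 7 and 2 of 6 KRT19-low collagen VI cells.

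The 13 KRT19-low collagen VI cells were not 1 kind of cell, and with 7 and 6 cells they fell below the minimum of 10 cells per replicate, so no test of single genes is given. A fit that dropped the minimum called 1182 of 10341 genes (11.4%) higher and 537 (5.19%) lower in KRT19-high than in KRT19-low cells by edgeR, 16.6% in either direction. The KRT19-low sums of the 2 replicates correlated at only 0.41 across genes, against 0.96 for the KRT19-high collagen VI sums. These calls therefore concern a mixture and are not read as results about a KRT19-low class. Some summed levels differed widely between replicates: COL1A1 was at 393 and 930 CPM, COL3A1 at 811 and 2169, and APOA1 at 49.2 and 477. GFP was at 1917 and 1573 CPM, and COL6A3 at 393 and 524. Neural genes were present, with NES, an intermediate filament of neural progenitors, at 983 and 667 CPM and SOX2 at 221 and 95.3, against 58.3 and 76.7 and 5.56 and 4.95 in the KRT19-high cells.

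Taken singly, 4 of the 13 were shallow, with 703, 1508, 1070 and 2199 total UMIs, and none of these had a KRT19 UMI. The deepest of these 4 had 4 COL1A1, 9 COL3A1 and 3 APOA1 UMIs. A further pair held collagen I and APOA1: a cell of replicate 2 with 5628 UMIs had 33 COL1A1, 55 COL3A1 and 16 APOA1 UMIs with 2 KRT19 UMIs and no GFP, and a cell of replicate 1 with 4418 UMIs had 12 COL1A1 and 2 APOA1 UMIs, 3 GFP UMIs, and no DCN or KRT8. Another 4, all deep, with 10813, 11643, 10196 and 11049 UMIs, were GFP-rich, at 40, 32, 31 and 35 GFP UMIs.

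Those GFP-rich cells differed among themselves. The cell with 11643 UMIs had 29 HES5, 10 STMN2 and 7 SOX2 UMIs, genes of neural progenitors and young neurons. The cell with 10196 UMIs had 50 STMN2, 13 HAND2 and 5 PRRX1 UMIs and no COL1A1 or SPARC, although it held 11 collagen VI UMIs. The cell with 11049 UMIs had 25 DCN and 4 SOX2 UMIs. The cell with 10813 UMIs had 18 COL3A1, 4 HAND2 and 3 PRRX1 UMIs and no COL1A1 or DCN. 1 cell carried part of the genes of fibroblastic mesenchyme: with 11812 UMIs it had 8 TWIST1, 5 FOXC1, 7 CXCL12 and 24 COL3A1 UMIs and neither KRT19 nor GFP. Other fibroblast markers were absent or few in it, with no COL1A1 or PRRX1 UMI, 2 DCN UMIs and 1 PDGFRA UMI. TWIST1 and COL3A1 were not particular to it. Among KRT19-high collagen VI cells, 10 of 33 and 34 of 66 had a TWIST1 UMI, and all had COL3A1 UMIs. The remaining pair, with 4611 and 6982 UMIs, held 4 and 3 collagen VI UMIs and 0 or 1 UMIs of COL1A1, COL3A1 and KRT19.

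**Figure D5:**
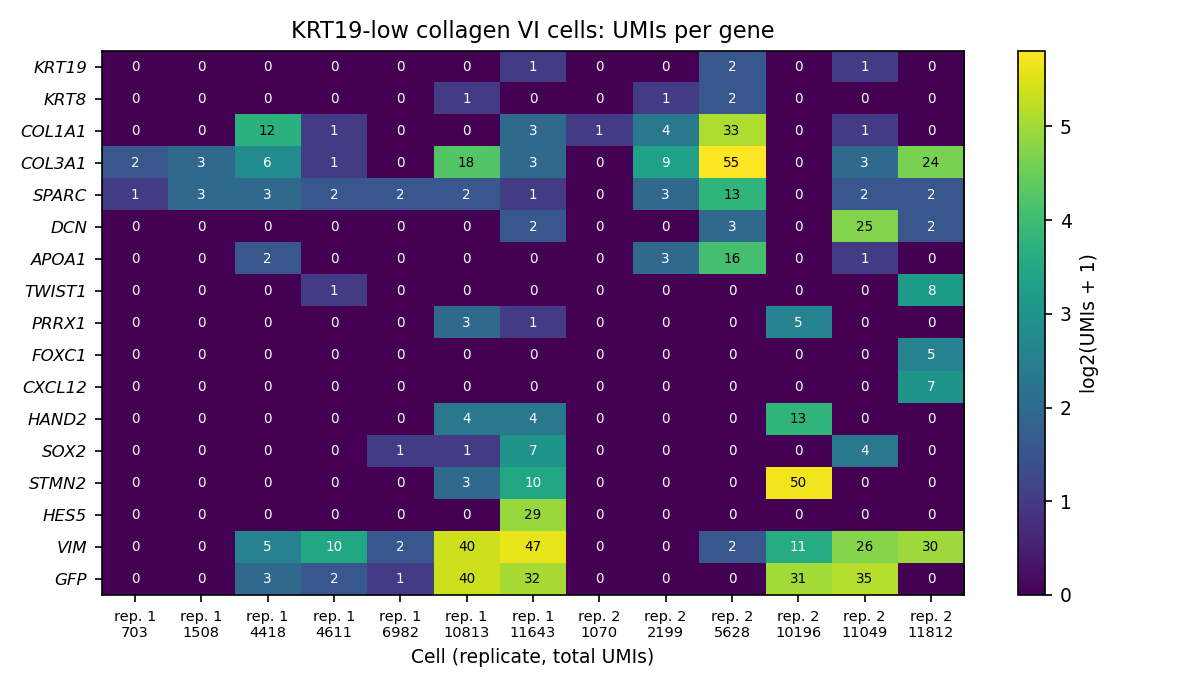
UMIs of 17 genes (rows) in each of the 13 KRT19-low collagen VI cells (columns, labelled by replicate and total UMIs); colour shows log2(UMIs + 1) and the number is the UMI count. Collagen I and III, STMN2, HES5, TWIST1 and GFP are high in different cells.

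Within the KRT19-high collagen VI cells, APOA1, RBP4, COL3A1 and COL1A1 had the highest variance over mean, a ratio that rises with abundance. In cells thinned to 4000 UMIs (29 and 65 cells), the variance of APOA1 was 17.4 and 18.2 times its mean, against a median of 1.503 and 1.54 over 1002 genes. RBP4 followed at 16.0 and 18.8, COL3A1 at 12.8 and 20.6 and COL1A1 at 10.6 and 12.2. COX3 (9.03 and 8.61) and RPL10 (9.001 and 7.85), a mitochondrial and a ribosomal gene, came next, before APOE (10.9 and 7.71), and TPT1, EEF1A1, RPS23, RPLP0 and RPS12 were also among the 15 highest. Per cell, APOA1 ran from 0 through a median of 16740 to 31052 CPM in replicate 1 and from 0 through 16805 to 35483 in replicate 2. KRT18 was found in part of the cells, with a UMI in 7 of 33 and 34 of 66, against 32 of 33 and 64 of 66 for KRT8.

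Levels also differed by ribosomal share. The 6 and 7 KRT19-high collagen VI cells with under 10% ribosomal protein counts had 7437 and 6947 CPM of APOA1 and 2895 and 2876 of KRT19, against 19376 and 18455 and 7281 and 7409 in the 27 and 59 cells with 10% or more. COL1A1 did not follow it in the same way in both replicates, at 7304 and 14716 CPM against 11029 and 10066. NRG1 was higher in value in the low-ribosomal cells of both replicates, at 2561 and 1980 CPM against 771 and 780. GFP was low in both, at 44.5 and 37.3 and at 57.1 and 58.3 CPM.

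The genes whose level most resembled that of collagen VI across the 40 and 72 collagen VI cells included 4 genes of the matrix lists among 10. The share of those lists among all genes compared was not taken, so this count cannot be set against a background. By Spearman correlation of CPM among 1666 genes, ranked on the lower of the replicates, FN1, fibronectin, led with 0.42 and 0.53. It was followed by FILIP1 (0.50 and 0.42), COL4A2 (0.42 in both), COL18A1 (0.41 and 0.49) and HSPG2, the proteoglycan perlecan (0.59 and 0.40), then SLIT2, ENPP1, ATXN1, PCDH7 and LRRFIP1, which with FILIP1 are on none of those lists. Over the KRT19-high cells alone COL18A1 (0.46 and 0.48) and FN1 (0.40 and 0.52) led, and the top 10 also held LRRFIP1, FILIP1, ADGRL3, SLIT2, ENPP1, ITGB5 and MRC2. These are descriptions across cells of the same library that differ in depth and ribosomal share, and the collagen VI count itself chose the cells.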

How the data were processed

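The authors deposited UMI counts, not normalized, for each gene in each cell of 2 samples; per the submitters' processing notes, Cell Ranger, the bosTau9 build, R 4.1.2 and Seurat 4.3.0 were used, with roles and the Cell Ranger version not given in the sources used here. Deposited cells had 201 to 3999 detected genes, so cells had been filtered before deposit. Kept cells held 11162815 and 15402255 UMIs (medians 4987 and 5704 per cell), and 6 barcodes occurred in both samples. Doublets were not called; cells above the 95th percentile of UMIs were left out as an alternative. Of 17846 symbols, 17337 matched a RefSeq gene table of another assembly, used for names only. The 24 gene lists held 397 genes of the table.

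Counts were summed per class and replicate (359985 to 13604719 UMIs in tested classes) and fitted with edgeR 4.0.16 (R 4.3.3): TMM, filterByExpr, robust quasi-likelihood test, replicate as a block, Benjamini-Hochberg adjustment over all genes. All collagen VI cells formed 1 fit of 4 sums. A second fit held 6 sums: KRT19-high collagen VI cells and both classes without collagen VI. A class under 10 cells per replicate was left out. Standard errors are the log2 difference over the root of the test statistic. Sums of 1 number come from 1 suspension, which pairs them; their replicate deviations correlated at 0.31 (all collagen VI cells with cells without) and 0.04 (both KRT19-high classes) across genes. CPM levels use plain totals, so equal CPM is not a log2 difference of 0. After the fits, the test was also run on simulated counts that took their spread from those fits. They held far fewer changed genes than were called in the data, and the outcome is not given here. DESeq2 1.42.0 and the alternatives of the closing section were run.

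Named genes were the 15 highest and 10 lowest called genes by log2 of mean CPM + 20, with 50 CPM or more in the higher class and 1 direction in both replicates, without mitochondrial, ribosomal, unnamed and rule genes, plus the 4 genes of each list with the largest difference and the class markers. Genes named beyond it (among them GFP, GATA6, DAB2, AMN, LAMA4, LRP2 and the single-cell genes of the KRT19-low cells) were chosen after their values were seen. The members and lists were chosen with earlier results of these data known. Some genes are not reported here.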

Additional observations from a re-analysis of the deposited data

How the results depend on the processing

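Counts of called genes moved with the tool and the scaling. Against all cells without collagen VI, 3009 higher and 3352 lower genes became 1960 and 1420 with DESeq2 (58.0% of calls higher, against 47.3%), 1550 and 1588 without cells above the 95th percentile of UMIs, which leaves fewer collagen VI cells, and 1696 and 6676 with library totals only. In the KRT19-high comparison, 2265 and 2253 became 1749 and 1427 with DESeq2, 1440 and 1242 without the deepest cells, and 1434 and 4103 with library totals only. Without the replicate block the counts were 3154 and 3537, and 2238 and 2166; among named genes this ended the calls of HBE4, IGFBP3, PRP1, PRP4 and HBE2 in the first and ATP6V1G3, TKDP4 and STMN2 in the second. Library totals, the removal of cells with PAG2 and PAG8 UMIs, the fit with the KRT19-low class kept and the removal of KRT19-low cells were chosen after seeing the data. HBE2 alone among the called named genes changed sign, from −2.70 to 0.16 among cells within the depth band and 0.10 without the deepest cells. Without 1 replicate it ranged from −4.05 to 0.66. Leaving out replicate 1 moved the fold of 18 of 119 called named genes by over 1.5 times in the first comparison and 17 of 108 in the second, and leaving out replicate 2 moved 26 and 47; these fits have no residual degrees of freedom and give no calls. KRT19-high at 1 or more UMIs moved 62 of 108 and ended the calls of KRT18, MYL4, AIF1 and SFRP1. Without the deepest cells 53 of 119 and 37 of 108 moved, and 7 and 3 calls ended (HEY1, TEK, UNCX, PAX8, MKI67, EPCAM and OGN; SFRP1, RSPO3 and HAND2). The cause of these changes was not tested.

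The share of collagen VI cells was 3.37% at 2 or more UMIs and 1.32% after thinning to 2000 UMIs, against 2.52%, and the KRT19-high share was 96.2% at 5 or more collagen VI UMIs, against 87.1%. The KRT19-high against KRT19-low comparison had too few cells, so its other settings were not run; an added fit with no minimum called 1182 genes higher and 537 lower (11.4% and 5.19% of 10341), 638 and 689 with DESeq2. Low genes are limited by depth: 3 counts over the 99 KRT19-high cells are 2.57 CPM.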
